A study of Mus musculus with 10 samples.

Results

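The interleukin-9 receptor gene Il9r, the shared gamma-chain gene Il2rg, the receptor chain genes Il2rb, Il4ra, Il7r, Il15ra and Il21r, and the kinase genes Jak1 and Jak3 were followed in mouse blood RNA. These 9 genes, of 30984 gene identifiers in the table, were chosen by symbol as members of 1 receptor system, with the difference of Il9r between the groups of these same libraries already known. Their differences between the groups are therefore a description, and where a fit over all genes gives a count or an interval for them, it supports nothing. Libraries of mRNA were made from blood of Mus musculus, and the treatment label reads burn wound healing for 6 libraries, called burn here, and burn wound healing-NC for 4, called NC here. The letters NC are not expanded in the labels used here. The series title speaks of a burn wound and of MnCl2, but no label assigns MnCl2 to a group, and the sources used here name no strain, age or time after injury. Nothing in the labels says that the libraries came from separate animals, so the errors and p-values cover the spread from library to library alone, which may be technical.

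Cytokines of the gamma-chain family (interleukins 2, 4, 7, 9, 15 and 21) signal through receptors that share the chain encoded by Il2rg. Each receptor pairs that chain with a partner chain, which the interleukin-2 and interleukin-15 receptors have in common. The gamma chain carries the kinase JAK3 and the partner chain JAK1, and the kinases phosphorylate STAT transcription factors. In blood the family is known for the survival of naive T cells through the interleukin-7 receptor, for natural killer cells through the interleukin-15 receptor and for B cells and helper T cells through the interleukin-4 and interleukin-21 receptors. Receptors for interleukin-9 are known on mast cells and on subsets of T and B cells.

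The start region of Il9r is shown because Il9r was the gene whose burn and NC libraries lay apart, and that of Il7r because it was the only one of the 8 genes with a listed region to hold a STAT-type motif. The regions run from 250 bases before to 50 after the annotated start and come from RefSeq (GRCm38.p6). Il9r lies on the minus strand at chr11:32200230-32200529 and Il7r on the minus strand at chr15:9529827-9530126. Letters are lower case, and capitals mark a match to the palindromic motif TTCNNNGAA, the usual core of STAT binding sites.
Il9r: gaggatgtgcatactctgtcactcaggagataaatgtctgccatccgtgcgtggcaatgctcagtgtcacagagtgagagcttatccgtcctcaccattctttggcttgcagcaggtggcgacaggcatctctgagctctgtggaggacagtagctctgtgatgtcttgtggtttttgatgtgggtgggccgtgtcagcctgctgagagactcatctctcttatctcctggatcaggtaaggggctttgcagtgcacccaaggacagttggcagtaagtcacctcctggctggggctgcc
Il7r: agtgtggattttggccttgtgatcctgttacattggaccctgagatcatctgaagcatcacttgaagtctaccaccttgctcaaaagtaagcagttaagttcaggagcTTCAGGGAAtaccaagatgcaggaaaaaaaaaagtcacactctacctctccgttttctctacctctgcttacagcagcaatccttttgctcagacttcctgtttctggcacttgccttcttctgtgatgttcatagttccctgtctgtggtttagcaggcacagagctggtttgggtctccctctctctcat
The Il7r match began 142 bases before the RefSeq start. The GENCODE span of Il7r reaches further upstream, to 9530176, so the whole Il7r region shown, match included, lies inside that span. The motif TTCNNNGAA was searched as written, which reads the same on both strands, and 8.29% of 32817 RefSeq start regions of the same length held it. The form with 1 more spacer base, 4 in all, was in 6.94% of those regions and in none of the 9 regions listed for 8 of the genes. A match describes letters only, and the lack of one in this window says nothing about a factor. On mm10, Il9r spans chromosome 11 from 32187541 to 32200279 and Il2rg the X chromosome from 101264378 to 101268255. Il4ra and Il21r are neighbours on chromosome 7, at 125552120 to 125579474 and 125603429 to 125633570, with 23955 bases between them. Il7r (9505788 to 9530176) and Il2rb (78479256 to 78495271) share chromosome 15. Il15ra (chromosome 2, 11705290 to 11734317), Jak1 (chromosome 4, 101152367 to 101265282) and Jak3 (chromosome 8, 71676296 to 71690575) lie apart from the others. All 9 are protein coding. Jak3 shares 1362 bases with Insl3 on its own strand, so reads in that stretch may be counted for either, and Insl3 had at most 46 counts in a library. The overlapping identifier Gm20489 covers all 3878 bases of Il2rg and has no row in the table.

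Library totals ran from 30677206 to 36379663 counts. Levels are CPM (counts scaled to library size) with TMM factors, which correct for composition, and a difference is log2 of burn over NC from the edgeR fit to 17268 genes. Marker genes of B cells (12 of 12), T cells (11 of 11), monocytes (9 of 9), natural killer and cytotoxic cells (10 of 10), neutrophils (8 of 8), platelets (8 of 9) and red cells (7 of 7) passed the count filter, so RNA of all these cell types was present, although other label fields speak of lymphocytes and monocytes and the title of mononuclear cells. NC 1 and NC 4 stood apart on neutrophil markers, with summed levels of 5567 and 4397 CPM against 533 to 2206 CPM in the other 8 libraries. NC 2 and NC 3 stood apart on natural killer and cytotoxic markers, with 791 and 838 CPM against 262 to 456 CPM elsewhere.

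Il9r was the gene whose level differed most between the groups among the 9. Its burn libraries ran from 21.1 to 34.4 CPM with a median of 24.5 CPM, and NC 1 to 4 held 12.2, 17.1, 12.6 and 18.2 CPM. Burn 3 was highest and burn 5 lowest in its group, and every burn library lay above every NC library. The burn mean of 26.0 ± 4.66 CPM (SD, n = 6) was 1.73-fold the NC mean of 15.0 ± 3.06 CPM (SD, n = 4). On the log2 scale the difference was 0.79 (SE 0.16, 95% interval 0.44 to 1.14). In deposited FPKM, which divides by gene length, the levels were 5.33 ± 0.947 and 2.98 ± 0.687. Each burn library gave 736 to 1239 Il9r counts and each NC library 363 to 639. In bulk RNA, more cells of a type and more RNA per cell cannot be told apart.

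Of the 9 genes, 1 had every burn library above every NC library, where 1.34% of all tested genes did, and 0 had every burn library below, where 0.683% did. In edgeR 0 of 9 passed an adjusted p of 0.05, where 0% of all genes did. At an unadjusted p under 0.05 there was 1 of 9, Il9r, against 4.25% of all genes with higher values in burn. DESeq2 called 1 of 9, again Il9r, against 0.0869% of genes called higher and 0.405% called lower. The contrast was known when the genes were chosen, so nothing is read from these counts. The median log2 difference of the 9 was 0.07, beside 0.02 over all 17268 genes, with 6 higher and 3 lower values in burn beside 54.7% higher over all genes.

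**Figure D1:**
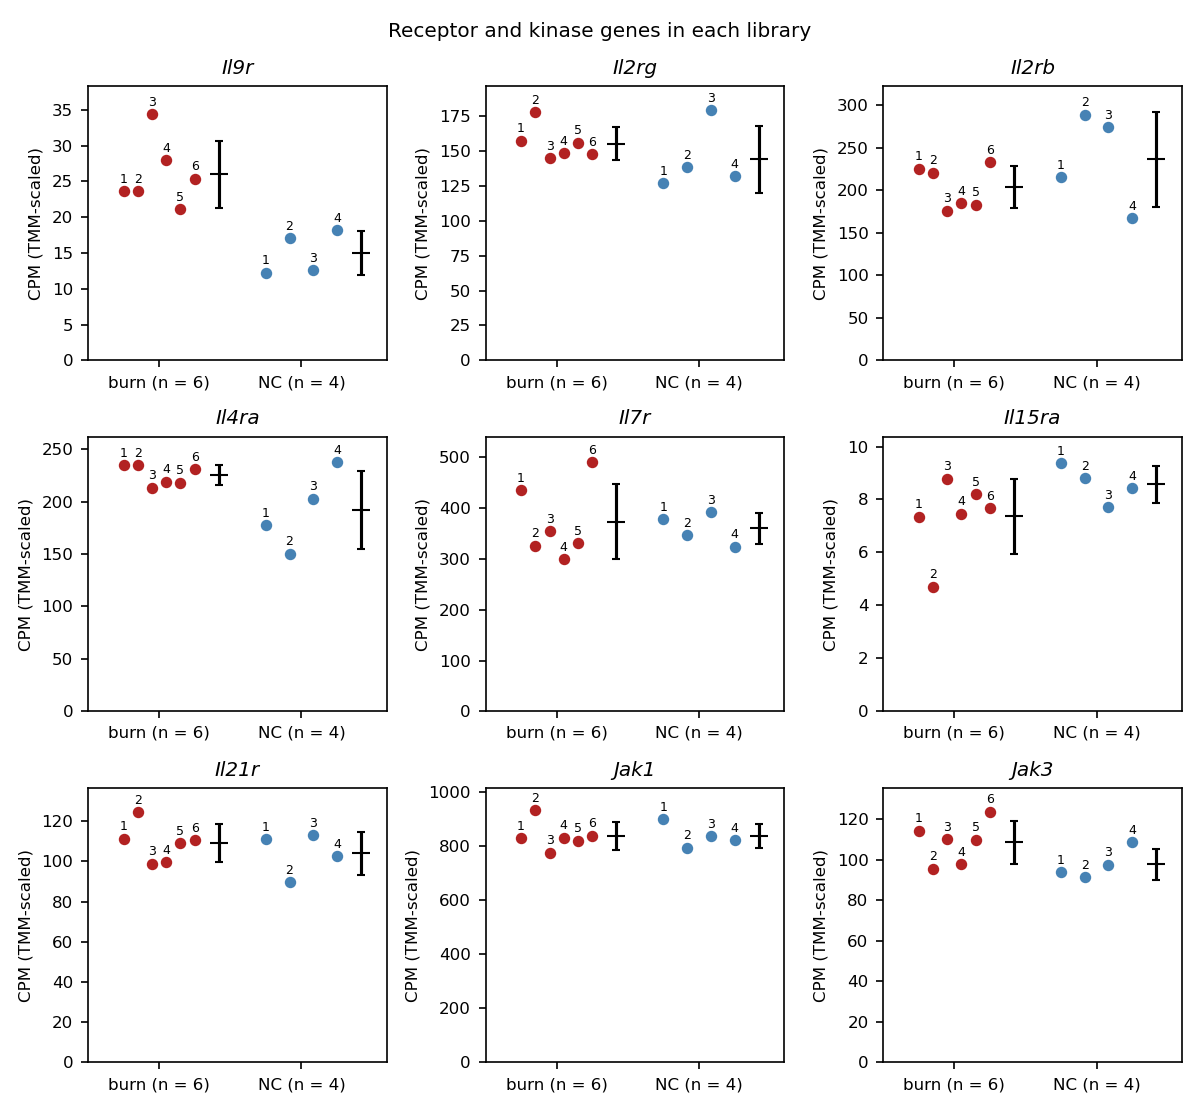
CPM of the 9 receptor and kinase genes in each library, with burn in red and NC in blue, replicate numbers over the points and the mean with its SD as a black bar. Il9r is the panel whose groups do not overlap (21.1 to 34.4 CPM against 12.2 to 18.2 CPM), and the other 8 genes overlap.

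B cell markers shared the direction of Il9r between the groups, but not its order of libraries. All 12 markers had higher values in burn, with a median log2 difference of 0.31 and 0 past the threshold. Their summed level was 2504 to 3696 CPM in burn and 2359 to 3097 CPM in NC, and none of them was at 0 in any library. Cd79a, a chain of the B cell receptor complex, ranged over 442 to 759 CPM in burn and 371 to 555 CPM in NC. Burn 4 and burn 2 were highest on the markers, while burn 3 was highest for Il9r, and NC 4 was the highest NC library on both. Burn 5, the lowest burn library for Il9r, held 3400 CPM of summed markers. Burn 1, the lowest burn library on the markers, held 23.7 CPM of Il9r. Per 1000 CPM of summed B cell markers, Il9r stood at 8.36 ± 1.87 CPM in burn (n = 6) and 5.84 ± 1.01 in NC (n = 4), and the ranges of 6.22 to 10.8 and 4.90 to 7.23 overlapped. With the B cell marker level in the fit, the log2 difference of Il9r was 0.68, and with the T cell or neutrophil marker level it was 0.82 or 0.80. The summed markers of memory and B-1 B cells stood at 608 to 709 CPM in burn and 506 to 779 CPM in NC, with 5 of 8 higher. Those of eosinophils, basophils and mast cells stood at 30.5 to 46.0 CPM in burn and 44.0 to 90.6 CPM in NC, with 2 of 11 higher and the eosinophil peroxidase gene Epx at 0 in burn 6.

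Across the libraries, the level of Il9r ran most like that of 5 genes found by Pearson correlation of log2 CPM over all 10 libraries, among 9769 candidates. They were Uhrf2, a ubiquitin ligase (r = 0.95), Dpp4, the surface peptidase CD26 (r = 0.95), Invs, a protein of primary cilia (r = 0.93), Smg5, a factor of nonsense-mediated decay (r = 0.92), and Cep57l1, related to a centrosomal protein (r = 0.92). Dpp4 averaged 116 ± 5.93 CPM in the burn libraries and 95.5 ± 7.06 CPM in the NC libraries. When only deviations from the group means were compared, other genes led, namely Arih2 (r = 0.94), Mtmr3 (r = 0.94), Azin1 (r = 0.92), Narf (r = 0.91) and Gda (r = 0.91). The second list has log2 differences of -0.20 to 0.16 between the groups. The values are a description of 10 libraries, each of which gives 1 point with its own cell composition and depth.

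Il2rg, the chain common to all receptors of the family, overlapped between the groups. Burn libraries ran from 145 to 178 CPM with a median of 152 CPM, and NC 1 to 4 held 127, 138, 179 and 132 CPM. NC 3 was the highest of all 10 libraries and burn 2 the next. The means were 155 ± 12.1 and 144 ± 23.8 CPM, a log2 difference of 0.11 (SE 0.11). As a share of Il2rg on the FPKM scale, Il9r was 8.18 ± 1.91% in burn (n = 6) and 5.17 ± 1.44% in NC (n = 4). Those shares ran from 6.41% to 11.4% and from 3.40% to 6.66%, so the groups overlapped by the value of NC 4.

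Il2rb, the signalling beta chain of the interleukin-2 and interleukin-15 receptors, had its highest values in NC. Burn libraries ran from 176 to 233 CPM with a median of 203 CPM, and NC 1 to 4 held 216, 289, 274 and 167 CPM. NC 2 and NC 3 were the highest and NC 4 the lowest library, so NC spanned the whole range of burn. The log2 difference was -0.21 (SE 0.15). Natural killer and cytotoxic markers moved with Il2rb, with all 10 at lower values in burn and a median log2 difference of -0.69. Of these markers, 7 were lower at an unadjusted p under 0.05 in edgeR, beside 7.00% of all genes, and 0 passed the adjusted threshold. Their summed level was 299.6 to 436 CPM in burn and 456, 791, 838 and 262 CPM in NC 1 to 4, with none at 0 in any library. NC 2 and NC 3 were highest and NC 4, burn 3, burn 4 and burn 5 lowest on both. Without NC 2 and NC 3 the log2 difference of Il2rb was 0.06, with the B cell marker level in the fit it was 0.08, and without NC 1 and NC 4 it was -0.46.

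Il15ra, the alpha chain that presents interleukin-15 to neighbouring cells, was the rarest of the 9. Burn libraries ran from 4.70 to 8.79 CPM with a median of 7.57 CPM, and NC 1 to 4 held 9.36, 8.80, 7.70 and 8.43 CPM. Burn 2 was lowest of all, burn 1, 4 and 6 also lay below every NC library, and burn 3 and 5 lay inside the NC range. The log2 difference was -0.22 (SE 0.16).

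Il4ra encodes the chain shared by the interleukin-4 and interleukin-13 receptors. It was even across burn, from 213 to 235 CPM with a median of 225 CPM, and uneven in NC, where NC 1 to 4 held 178, 150.5, 203 and 238 CPM. Its SD of log2 CPM was 0.06 in burn and 0.28 in NC, where the median SD of all tested genes was 0.21 and 0.34. NC 4 was above every burn library and the other 3 NC libraries below. The log2 difference was 0.23 (SE 0.11), 0.10 without NC 2, and 0.35 without NC 1 and NC 4. Its neighbour Il21r, the receptor chain for the helper T cell cytokine interleukin-21, ran from 98.8 to 125 CPM in burn with a median of 109.8 CPM, and NC 1 to 4 held 111, 89.5, 113 and 103 CPM. The groups overlapped, with burn 2 highest and NC 2 lowest, and the log2 difference was 0.07 (SE 0.09).

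Il7r, the interleukin-7 receptor alpha chain of naive and memory T cells, varied most within burn in CPM. Its values ran from 300.2 to 490.5 CPM with a median of 343 CPM, and NC 1 to 4 held 379, 346, 392 and 324 CPM. Burn 6 and burn 1 lay above every NC library, while burn 4 lay below. The log2 difference was 0.05 (SE 0.14), and 0.33 with the B cell marker level in the fit. Burn 6 and burn 1 had 2393 and 2403 CPM of summed T cell markers, but burn 2, with 2442 CPM, had 326 CPM of Il7r. Over all libraries those markers stood at 1876 to 2442 CPM in burn and 1539 to 2925 CPM in NC, with 7 of 11 higher in burn and none at 0. Cd3e, a chain of the T cell receptor complex, ranged over 79.1 to 102 CPM in burn and 71.2 to 111 CPM in NC.

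The kinases differed little. Jak1, which serves many cytokine receptors beyond this family, ran from 777 to 933 CPM in burn with a median of 831 CPM, and NC 1 to 4 held 902, 795, 837 and 822 CPM. The NC libraries lay inside the burn range, with burn 2 above and burn 3 below them all, both means were 839 CPM, and the 95% interval of the log2 difference ran from -0.19 to 0.19. Jak3, which is bound to the gamma chain, ran from 95.6 to 124 CPM in burn with a median of 110.0 CPM, and NC 1 to 4 held 93.8, 91.4, 97.6 and 109 CPM. Of the 6 burn libraries, 4 lay above every NC library and 2 lay within the NC range. The log2 difference of Jak3 was 0.15 (SE 0.09).

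The order of the levels per gene length did not use the contrast of the groups. Its neighbouring pairs were set by the mean levels in these same 10 libraries and then tested on them. The p-values are therefore no independent support for the order. Mean FPKM over the 10 libraries followed the order Jak1 (116 ± 7.10), Il7r (78.9 ± 13.2), Il2rg (63.0 ± 6.68), Il2rb (50.3 ± 8.27), Il4ra (35.4 ± 5.42), Il21r (32.2 ± 3.0), Jak3 (19.5 ± 2.46), Il9r (4.39 ± 1.46) and Il15ra (1.76 ± 0.291). Of the 8 neighbouring pairs, 7 passed a two-sided exact sign-flip permutation test, adjusted over the 8 pairs. The test asks whether the mean within-library log2 difference is 0, not whether the ranges of a pair lie apart. Ranges overlapped in some pairs that passed, such as Il7r (down to 66.6 FPKM) and Il2rg (up to 73.5 FPKM). Jak3 exceeded Il9r 4.66-fold in 10 of 10 libraries (exact p = 0.00195, adjusted 0.00391), the smallest p the test allows. Il9r exceeded Il15ra 2.40-fold in 10 of 10, with the same exact p. By group, the mean log2 difference of Jak3 over Il9r was 1.96 in burn and 2.61 in NC, and that of Il9r over Il15ra was 1.68 in burn and 0.64 in NC. Il4ra and Il21r did not pass, with Il4ra higher in 7 of 10 libraries and a mean log2 difference of 0.13 ± 0.18 (SD, n = 10, exact p = 0.0586). In the 6 burn libraries alone this pair passed, with Il4ra higher in 6 of 6 (exact p = 0.0312, adjusted 0.0357), and the pair of Il7r and Il2rg did not (exact p = 0.0938). In the 4 NC libraries Il4ra was higher in 1 of 4, and no pair can pass, since the smallest exact p is 0.125.

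**Figure D2:**
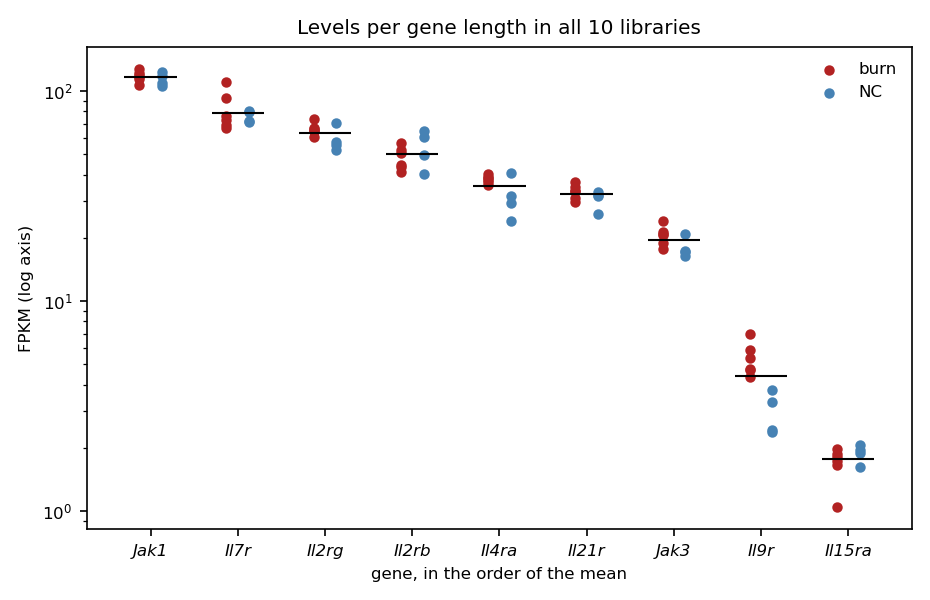
FPKM of the 9 genes on a log axis, in the order of the mean (black line), with burn libraries in red and NC libraries in blue. Jak1 stands near 116 FPKM and Il15ra near 1.76 FPKM, and Il9r, near 4.39 FPKM, is the gene whose red and blue points separate.

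The other genes of the pathway were taken from lists of 74 genes in all, of which 66 could be tested. In edgeR 0 of 66 passed an adjusted p of 0.05, in either direction, as did 0 in DESeq2 and 0 in limma. At an unadjusted p under 0.05 there were 3 with higher values in burn, or 4.55%, beside 4.25% of all tested genes. With lower values there were 8, or 12.1%, beside 7.00% of all genes. Without NC 2 and NC 3, the libraries with the most cytotoxic marker RNA, edgeR called 7 of the 66, beside 375 of all 18195 genes tested. The 7 were Il15, Il13ra1, Bcl6, Osm, Csf2rb, Csf2rb2 and Csf3r. That fit leaves only NC 1 and NC 4 in NC, the libraries with the most neutrophil marker RNA. Without NC 1 and NC 4, edgeR called 0 of 67 pathway genes, beside 27 of all 18134 genes tested.

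Among the cytokines, Il9 had no row. Il2 had at most 8 counts in a library, Il13 6, Tslp 6 and Il21 21, and all were under the count filter. The 3 that could be tested, Il15, Il4 and Il7, had lower values in burn at an unadjusted p under 0.05, and none passed the adjusted threshold. Il15, a survival factor of natural killer and memory T cells, ran from 6.22 to 8.35 CPM in burn with a median of 7.29 CPM, and NC 1 to 4 held 21.1, 8.25, 8.05 and 16.7 CPM. NC 1 and NC 4 were far above the rest, and NC 2 and NC 3 lay inside the burn range. The log2 difference of Il15 was -0.90 (SE 0.25, edgeR adjusted p 0.393), and -0.16 without NC 1 and NC 4. Neutrophil markers had 8 of 8 lower in burn, 0 past the threshold and none at 0. Their summed level was 660.4 to 2206 CPM in burn and 533 to 5567 CPM in NC. NC 1 and NC 4 were highest on both the markers and Il15, but the remaining libraries did not share an order. NC 2, lowest on the markers, held 8.25 CPM of Il15, and burn 2, lowest for Il15, held 1239 CPM of summed markers. Il4, the cytokine of helper T cells and basophils, ran from 0.983 to 2.53 CPM in burn and from 2.0 to 3.04 CPM in NC. Its groups overlapped by burn 1, and the log2 difference was -0.78 (SE 0.28, edgeR adjusted p 0.395). Il7, the T cell survival cytokine made by stromal cells, gave 6 to 12 counts per burn library and 34, 10, 29 and 9 in NC 1 to 4. All 5 connective tissue markers had lower values in burn, at a median log2 difference of -2.14, 4 at an unadjusted p under 0.05, 0 past the adjusted threshold and none at 0. Their summed level was 3.61 to 22.0 CPM in burn and 53.8, 26.8, 21.8 and 28.2 CPM in NC 1 to 4, so the groups overlapped by burn 1 and NC 3. All 7 dendritic cell markers had lower values in burn, at 15.6 to 24.0 CPM in sum against 20.02 to 41.7 CPM in NC, with none at 0. Their part in the cytokine values was not tested.

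**Figure D3:**
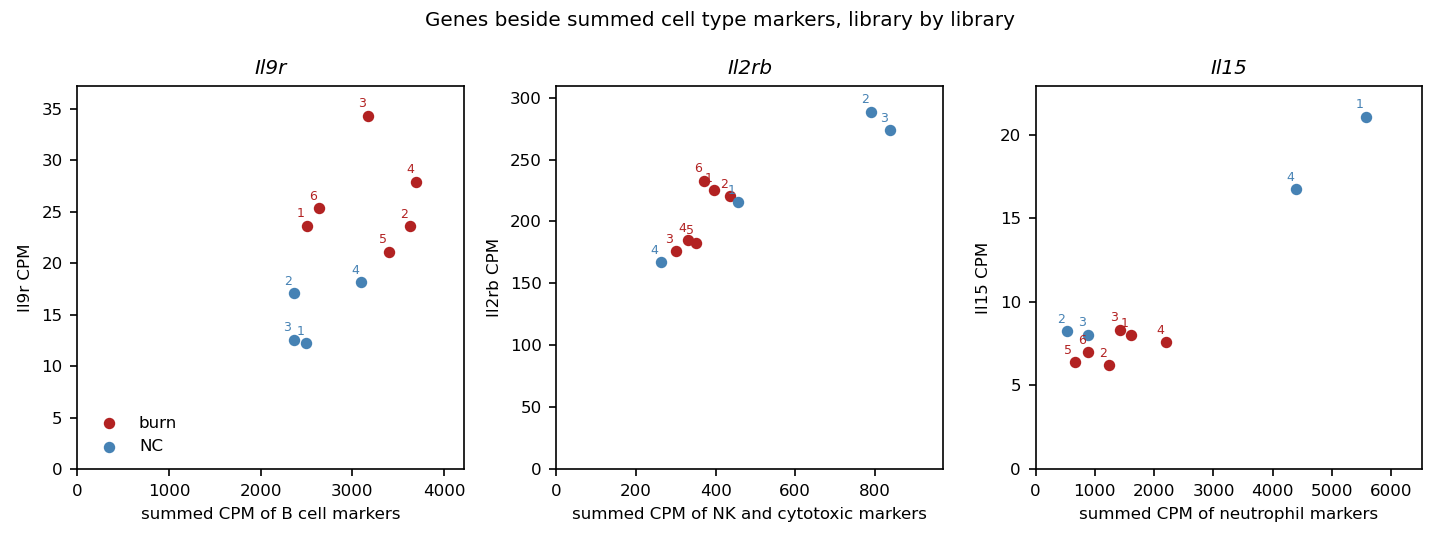
CPM of Il9r, Il2rb and Il15 against the summed CPM of B cell, natural killer and cytotoxic, and neutrophil markers, 1 point per library, with burn in red, NC in blue and replicate numbers beside the points. Il2rb and Il15 are highest in the libraries highest on the markers (NC 2 and 3 for Il2rb, NC 1 and 4 for Il15), while burn 3, highest for Il9r, is not highest on B cell markers.

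The receptor partners Il2ra, Il13ra1 and Crlf2 counted 0 of 3 past the threshold. Il2ra, the alpha chain of the high-affinity interleukin-2 receptor, averaged 14.2 ± 1.52 CPM in the burn libraries and 12.9 ± 3.42 CPM in the others. Il13ra1, which pairs with the Il4ra chain, averaged 60.9 ± 10.2 and 76.9 ± 24.3 CPM, and NC 1 and NC 4 were highest at 94.9 and 99.7 CPM. Of the 9 further kinases and STATs none passed at an unadjusted p under 0.05. The smallest p belonged to Stat4, which acts in type 1 helper and natural killer cells (log2 difference -0.11, SE 0.08), and to Tyk2, a kinase of interferon and interleukin-12 receptors (0.11, SE 0.09). The median log2 difference of these 9 kinases and STATs was 0.03. Of 7 adaptors 0 passed, with Ptpn11, the phosphatase SHP2, at 170.5 ± 16.6 and 222 ± 76.7 CPM and Irs2, a docking protein of the interleukin-4 receptor, at 63.8 ± 12.1 and 51.1 ± 9.29 CPM.

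Feedback inhibitors had 2 higher and 7 lower values of 9 in burn, with a median log2 difference of -0.24 and 0 past the threshold. Socs2, an inhibitor induced by STAT5, ran from 2.30 to 2.96 CPM in burn and stood at 5.0, 4.63, 4.27 and 2.36 CPM in NC 1 to 4. NC 4 lay inside the burn range and the other 3 above it. The log2 difference of Socs2 was -0.59 (SE 0.20, edgeR adjusted p 0.393). Pias1, a SUMO ligase that restrains STAT signalling, differed by 0.13 (SE 0.07).

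STAT5 target genes had 5 higher and 5 lower values, a median of 0.00 and 0 past the threshold. Ccnd3, the cyclin D3 gene of lymphocyte division, averaged 191 ± 13.7 CPM in the burn libraries and 238 ± 31.1 CPM in the others, and NC 4, at 197 CPM, was the only NC library inside the burn range. Bcl2, the survival gene kept up by interleukin-7, stood at 177 ± 15.1 and 144 ± 31.6 CPM. NC 1, at 191 CPM of Bcl2, lay inside the burn range of 163 to 205 CPM. The edgeR adjusted p was 0.393 for Ccnd3 and 0.426 for Bcl2.

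STAT3 and STAT6 target genes had 1 higher and 5 lower values of 6 tested, with 0 past the threshold. Bcl6, the repressor of germinal centre B cells and follicular helper T cells, stood at 85.2, 42.8, 43.7 and 73.5 CPM in NC 1 to 4 and at 42.6 to 51.4 CPM in burn. Its log2 difference was -0.38 (SE 0.18), and 0.12 without NC 1 and NC 4. Gata3, the factor of type 2 helper T cells, averaged 16.5 ± 1.62 CPM in the burn libraries and 20.4 ± 6.34 CPM in the others.

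Other class I cytokine receptors had 6 higher and 13 lower values of 19 tested, with a median of -0.06 and 0 past the threshold. Csf3r, the neutrophil growth factor receptor and itself on the neutrophil marker list, ran from 117 to 268 CPM over burn and stood at 769, 94.9, 121 and 746 CPM in NC 1 to 4. Its log2 difference was -1.25 (SE 0.52), and 0.76 without NC 1 and NC 4. With the neutrophil marker level in the fit, the log2 difference was -0.08 for Csf3r, whose own level is part of that covariate, -0.53 for Il15, -0.13 for Il13ra1 and -0.14 for Bcl6. With the B cell marker level it was -0.28 for Socs2. None of the 66 pathway genes passed in these fits or with the T cell marker level.

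**Figure D4:**
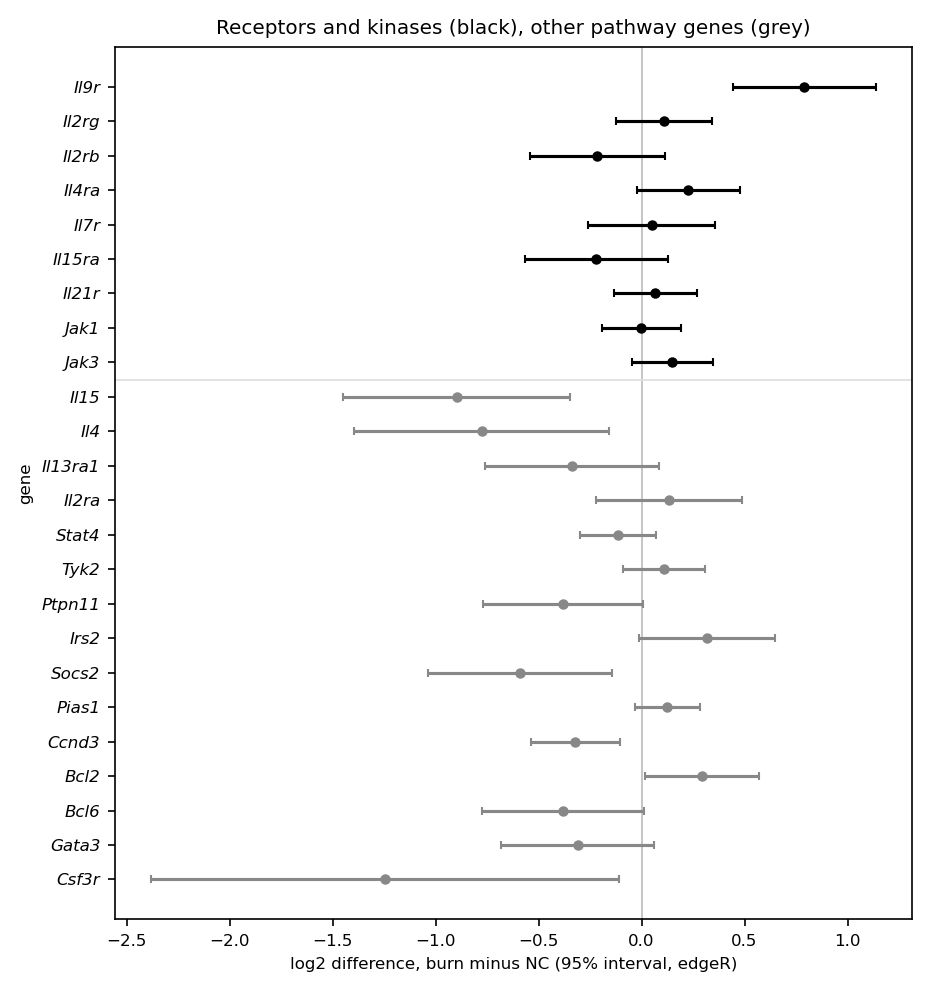
Log2 difference of burn minus NC with its 95% interval from the edgeR fit, for the 9 receptor and kinase genes (black) and 1 or 2 genes of each pathway list, taken from those with the smallest unadjusted p (grey). Il9r lies at 0.79, Il15 at -0.90 and Jak1 at 0, and no gene shown passed the adjusted threshold in edgeR.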

How the data were processed

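RNA of mouse blood was extracted with TRIzol and made into paired-end mRNA libraries, per the labels' protocols. The authors deposited 1 table of gene counts and FPKM values for 6 burn and 4 NC libraries, with build mm10 per the submitters' processing notes. The deposited counts are whole numbers, not normalized. The deposited FPKM values equal the counts over library total and gene length to within a relative 2.9e-13. The use of strand was, like aligner and counter, not given in the sources used here, so reads of overlapping antisense genes cannot be told apart. Symbols came from the table and positions from GENCODE M21, also mm10, which listed 30367 of 30984 identifiers. The 9 genes, the gene lists and the tests were chosen with earlier results of these data known.

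Genes were kept by filterByExpr (minimum count 10), scaled by TMM and compared by the quasi-likelihood F test of edgeR 4.0.16 in R 4.3.3 with no covariate, with Benjamini-Hochberg adjustment over 17268 genes and a threshold of 0.05. SE is the size of the log2 difference divided by the square root of F. DESeq2 1.42.0 and limma 3.58.1 were alternatives, and 33 genes had no adjusted p in DESeq2. Log2 CPM used a prior count of 1. The genes named are all 9, the 2 with the smallest p of each list where none passed, 5 genes by each correlation (mean of at least 5 CPM, no predicted genes), and Cd79a and Cd3e as markers. Some genes that this rule names are not reported here. Il7, the cytokine genes under the filter, the genes called without NC 2 and NC 3, Epx and overlapping genes are named outside that rule, after their values were seen. The fit was tested on simulated data. No replicate pair agreed within sampling noise (lowest chi-square per degree of freedom 15.68 in burn and 77.31 in NC).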

Additional observations from a re-analysis of the deposited data

Results flagged for a closer look

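Il15ra in burn 2, at 4.70 CPM, lay far below the other 5 burn libraries, which ran from 7.36 to 8.79 CPM, with a gap of 0.649 of the group's range. It was the only value flagged in 18 groups looked at (9 genes in burn and in NC), and about 1 in 20 groups is flagged by chance.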

How the results depend on the processing

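Leaving out pairs of NC libraries was chosen after seeing the data, and the other alternatives were fixed with earlier results known. The log2 difference of Il9r was 0.53 to 0.87 over 24 alternatives, 0.68 to 0.85 when 1 library was left out and lowest without NC 1 and NC 3. Those of Il4ra and Jak3 stayed positive and that of Il15ra negative in all 24. Those of Il2rg (1 of 24), Il2rb (2), Il7r (4), Il21r (2) and Jak1 (11) changed sign in some. Of the 9 genes, 5 to 7 had higher values in burn over the 24. The count of genes called over the whole table was 0 in edgeR (1943 at an unadjusted p under 0.05), 85 in DESeq2 and 1 in limma on log2(FPKM + 1) or log2(FPKM + 0.1). It was 0 to 10 when 1 library was left out, with 10 without burn 1 and 3 without NC 4. It was 375 without NC 2 and NC 3 and 27 without NC 1 and NC 4. The pathway count, 0, was 7 without NC 2 and NC 3, and the cause of these changes was not tested. The order of levels had 7 pairs past the threshold, 7 to 8 when 1 library was left out and 0 in NC alone, where the test cannot pass. Without NC 1 or without NC 2, the pair of Il4ra and Il21r passed too (exact p = 0.0234 and 0.0312). The labels state no pairing of libraries by replicate number, and correlations between libraries cannot decide whether there was one. Same-numbered libraries correlated in their deviations from the group means at -0.05, -0.04, -0.07 and 0.34, and only number 4 was closest to its own number among NC libraries and burn libraries alike. With the replicate number as a block, in which burn 5 and 6 add nothing to the difference, 0 genes and 0 pathway genes were called and Il9r differed by 0.87. Depth limits rare genes, such as the cytokine genes under the count filter.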
